A study of Mus musculus with 24 samples.

Results

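This account covers 10 genes that encode subunits of BAF and PBAF, chromatin remodeling complexes of the SWI/SNF family, in germ cells of the mouse testis. The members were chosen by symbol (Smarca4, Smarca2, Smarcb1, Smarcc1, Smarcc2, Smarcd1, Smarce1, Arid1a, Arid2 and Pbrm1), through the gene annotation and not through any measured value, and all 10 of 10 were found among the 55536 gene identifiers of the count table. Poly(A) RNA had been sequenced from 2 fractions of enriched cells, pachytene/diplotene spermatocytes (SP) and round spermatids (RS). The mice were C57BL/6J males of 10 to 15 weeks that carried 0, 1 or 2 copies of a germline deletion on chromosome 4 which takes out Ago1 together with parts of Ago3 and Ago4, and they are named here wild-type (Ago413+/+), heterozygous (Ago413+/-) and null (Ago413-/-). The deletion was made in embryonic stem cells of a 129 strain and was made constitutive with a Sox2-cre deleter, so that every cell of a null mouse lacked the segment and no group was deleted in germ cells alone. Testes of 2 to 5 mice of 1 genotype were combined for each preparation before sedimentation through bovine serum albumin. The compared groups held 4 wild-type, 3 heterozygous and 3 null libraries of spermatocytes, and 3 wild-type, 4 heterozygous and 4 null libraries of round spermatids. The study asked how nuclear Argonaute proteins act with the transcription and chromatin machinery of male germ cells, and the comparison here is whether the genes of these remodelers differ in level between the fractions and when the Argonaute genes are deleted.

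BAF and PBAF use the energy of ATP to slide or evict nucleosomes, which opens DNA for transcription, repair and recombination. Each complex is built around 1 catalytic ATPase, either SMARCA4 (also called BRG1) or SMARCA2 (BRM), and a core made of SMARCB1, SMARCC1, SMARCC2, SMARCD1 and SMARCE1 that is shared between the forms. ARID1A marks canonical BAF, whereas ARID2 and PBRM1, the latter a protein with many bromodomains that bind acetylated histones, mark PBAF. In male germ cells, SMARCA4 is required for meiosis, and PBAF has been connected to gene expression at the meiotic divisions.

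Ago1 could check only the null labels, since its wild-type and heterozygous levels overlapped. Its level was 2.82 to 4.49 CPM (counts relative to the library total, after scaling between libraries) in the wild-type libraries and 1.71 to 3.75 CPM in the heterozygous ones, whereas all 7 null libraries held 0 counts. Total counts were 12825105 to 29749058 per library, and a member had between 143 counts (Smarcd1) and 12135 counts (Smarca2) in a library, so that none of the 10 was near the detection limit and all 10 passed the filter on low counts in every fit. The labels call 3 further libraries outliers (wild-type spermatocyte replicate 3, heterozygous spermatocyte replicate 4 and wild-type round spermatid replicate 3), and these were left out of the comparisons. The 6 elongating spermatid markers summed to 5806 CPM in the omitted round spermatid library, against 23947 to 33909 CPM in the other wild-type round spermatid libraries, and to 15767 CPM in the omitted wild-type spermatocyte library, against 3857 to 8977 CPM in the others of its group.

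Spermatocyte markers had a lower mean sum in round spermatids in each genotype, whereas the sums of round spermatid markers overlapped between the fractions and those of elongating spermatid markers did not. The 8 spermatocyte markers (Sycp1, Sycp3 and others) summed to 632 to 904 CPM in wild-type spermatocytes, 406 to 547 CPM in heterozygous and 414 to 544 CPM in null spermatocytes, and to 308 to 474 CPM over all round spermatid libraries. The 8 round spermatid markers summed to 946 to 1555 CPM in wild-type, 1333 to 2443 CPM in heterozygous and 1575 to 1753 CPM in null spermatocytes, against 1322 to 1791, 1482 to 1984 and 1692 to 2086 CPM in the round spermatids of these genotypes. Between fractions their median log2 fold change was 0.47 in wild-type mice (8 of 8 positive), 0.06 in heterozygous and 0.16 in null mice (5 of 8 positive in each), and that of the spermatocyte markers was -0.99, -0.66 and -0.69. The elongating spermatid markers differed most of the germ cell lists, with 6 of 6 called higher by edgeR in round spermatids of each genotype and medians of 1.96, 1.83 and 2.13, and their part in the differences between fractions given below was not tested. Spermatogonial (38.5 to 101 CPM), Sertoli (65.6 to 362 CPM), Leydig (3.02 to 22.8 CPM), peritubular myoid (3.36 to 10.4 CPM) and erythrocyte markers (0.990 to 10.7 CPM) had lower mean sums than the germ cell markers of the fractions in each group. Single libraries overlapped in null round spermatids, where Sertoli sums reached 341 CPM and spermatocyte sums began at 308 CPM. Macrophage markers ranged from 3.10 to 5.05 CPM in wild-type spermatocytes, where Lyz2 was at 0, and from 10.3 to 25.8 CPM in round spermatids. In such bulk samples, fewer cells of a type and less RNA per cell cannot be told apart. A library stands for a pool of mice, and p-values therefore measure the spread between pooled preparations.

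Per kilobase of exon, the members fell into a high and a low class in both fractions, with Smarce1 between them. Exon length was the union of all annotated exons of a gene, and the order of members depends on it. In wild-type spermatocytes, the core scaffold gene Smarcc2 stood at 39.6 ± 4.80 CPM per kb (SD, n = 4), followed by the ATPase genes Smarca4 (33.6 ± 7.77) and Smarca2 (28.9 ± 3.53) and by Arid2 (28.4 ± 7.68), and the libraries of these 4 neighbours overlapped. Smarce1, which encodes the HMG-box subunit BAF57, came next at 11.6 ± 1.33 CPM per kb and did not overlap its neighbours on either side. Below it lay Smarcb1 (7.86 ± 1.39), Smarcd1 (6.29 ± 1.89), Pbrm1 (5.98 ± 1.00), Smarcc1 (4.53 ± 0.798) and Arid1a (4.23 ± 0.608 CPM per kb), each overlapping the next. Among 15073 protein-coding genes tested, this order ran from the 89th percentile for Smarcc2 to the 57.5th for Arid1a.

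In wild-type round spermatids, Smarcc2 led at 47.1 ± 4.16 CPM per kb (SD, n = 3) and no longer overlapped Smarca4 (25.1 ± 4.87). Smarca2 (22.4 ± 1.43) and Arid2 (20.04 ± 1.38) overlapped their neighbours above, Smarce1 (9.06 ± 0.234) stood apart from both of its neighbours, and Pbrm1 was the lowest member at 3.67 ± 0.449 CPM per kb. Smarca2 had a higher mean per kilobase than Smarca4 in the heterozygous and the null groups of both fractions, and in null round spermatids the values were 22.5 ± 5.76 for Smarca2 and 16.4 ± 4.24 CPM per kb for Smarca4 (n = 4), with libraries that overlapped. The wild-type order of this pair rests on exon lengths of 14.3 kb for Smarca2 and 6.48 kb for Smarca4. Before that division, Smarca2 had the higher mean in wild-type spermatocytes (412 against 217 CPM) and round spermatids (320 against 162 CPM). Percentiles of Pbrm1 were 63.0 in wild-type spermatocytes and 57.0 in wild-type round spermatids.

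**Figure D1:**
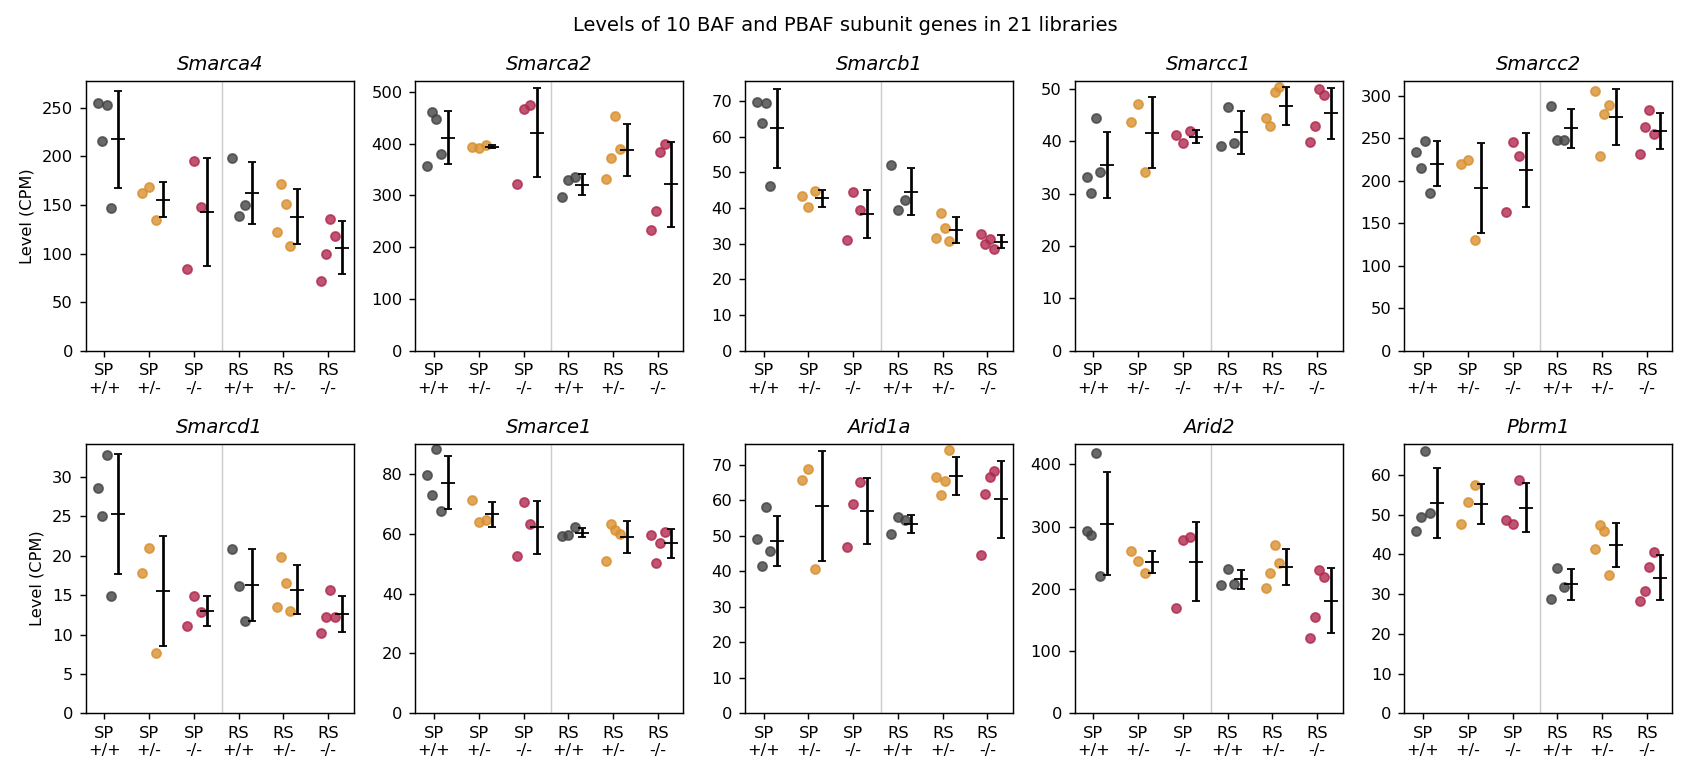
Level of each of the 10 genes (CPM, linear axis from 0) in the 21 libraries, by fraction (SP, spermatocytes; RS, round spermatids) and Ago413 genotype (+/+, +/- and -/-), with 1 point per library and the group mean ± SD beside the points. Pbrm1 is lower in round spermatids in every genotype with no overlap, and Smarcb1 is highest in wild-type spermatocytes, where 3 of 4 libraries lie above 60 CPM.

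Between the fractions, the PBAF gene Pbrm1 was the member called, lower in round spermatids of wild-type and of null mice. Across the 10 members, 1 was called lower and 0 higher in wild-type round spermatids, beside 24.2% of all 20404 genes called in either direction (11.4% lower), where DESeq2 called 2 (26.7% of genes). In null mice 1 of 10 was called, beside 17.1% of genes (5.42% lower; with DESeq2 also 1, beside 19.9%), and in heterozygous mice 0 of 10, beside 8.89%, with 2 members at an unadjusted p under 0.05 by edgeR (23.6% of genes) and 1 called by DESeq2 (11.2% of genes). The median log2 fold change of the members was -0.39 in wild-type mice, where that of all genes was 0.02, -0.04 in heterozygous mice (all genes -0.06) and -0.23 in null mice (all genes -0.00). Libraries of the fractions did not overlap for 4 of 10 members in wild-type mice (Pbrm1, Smarce1 and Smarca2 lower, Smarcc2 higher), beside 33.7% of all genes. In heterozygous mice they did not overlap for 3 members that were lower (Pbrm1, Smarce1 and Smarcb1), beside 7.07% of genes lower, and for 1 that was higher (Smarcc2), beside 10.9% higher. In null mice they did not overlap for 1 member, beside 29.7% of genes.

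Pbrm1 (chromosome 14, plus strand, 31019138 to 31121592, GRCm38) was at 46.0, 49.3, 65.9 and 50.5 CPM in the wild-type spermatocyte libraries and at 28.8, 36.7 and 31.9 CPM in the wild-type round spermatid libraries. Every round spermatid library lay below every spermatocyte library. The level was 1.63-fold lower in round spermatids (log2 fold change -0.71 ± 0.16, SE of the fit, edgeR adjusted p = 0.00337), and the call held in 7 of 7 fits that each left out 1 library of the 2 groups.

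In null mice, Pbrm1 was at 48.8, 47.6 and 58.7 CPM in spermatocytes and at 28.3, 30.8, 36.8 and 40.6 CPM in round spermatids. The groups again did not overlap, and the level was 1.51-fold lower in round spermatids (log2 fold change -0.60 ± 0.16, edgeR adjusted p = 0.0123). This call was lost without null spermatocyte replicate 3 (adjusted p = 0.104) or without null round spermatid replicate 1 (adjusted p = 0.0517), and it held in the other 5 of 7 such fits. Without null spermatocyte replicate 1, edgeR also called Smarca4 (-0.70, adjusted p = 0.0447), Smarca2 (-0.55, 0.0333) and Arid2 (-0.63, 0.0470) lower in null round spermatids, together with 20.3% of all 20324 genes, and without null round spermatid replicate 4 it called Smarca2 (-0.51, 0.0483), together with 18.8%. In heterozygous mice, Pbrm1 was at 47.5, 53.2 and 57.4 CPM in spermatocytes and at 41.4, 47.4, 45.8 and 34.9 CPM in round spermatids, which did not pass the test (log2 fold change -0.31 ± 0.16, edgeR adjusted p = 0.243) although the highest round spermatid library was just under the lowest spermatocyte library. The fraction difference of Pbrm1 was not shown to depend on genotype, with an interaction of 0.11 ± 0.23 for null (adjusted p = 0.932) and 0.39 ± 0.23 for heterozygous mice (adjusted p = 0.648, log2 scale, edgeR).

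With the 3 libraries labelled outliers added back, the log2 fold change of Pbrm1 was -0.36 in wild-type mice (edgeR adjusted p = 0.197) and -0.60 in null mice (adjusted p = 0.0620), and no call remained. In wild-type mice, 0 of 20542 genes were then called by edgeR (5950 genes had an unadjusted p under 0.05), against 4934 of 20404 without them. In the omitted wild-type round spermatid library, Pbrm1 was at 62.7 CPM, against 28.9 to 36.8 CPM in the others of its group on the scale of 24 libraries. Gnl3, which lies opposite to Pbrm1 and shares 15 exonic bases with it at the start, did not pass the test between fractions in wild-type (log2 fold change -0.20 ± 0.13, edgeR adjusted p = 0.268) or null mice (0.26, adjusted p = 0.163).

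Of the ATPase genes, Smarca4 (chromosome 9, 21616169 to 21704230) was at 254, 215, 253 and 147 CPM in wild-type spermatocytes and at 198, 139 and 150 CPM in wild-type round spermatids. These ranges overlapped, and the difference did not pass the test (log2 fold change -0.42 ± 0.25, edgeR adjusted p = 0.230). Smarca2 (chromosome 19, 26605050 to 26778322) was at 358, 461, 448 and 381 CPM in wild-type spermatocytes and at 297, 329 and 335 CPM in round spermatids. Its round spermatid libraries were all lower, without passing the test (-0.36 ± 0.18, adjusted p = 0.134). An antisense gene inside Smarca2, Gm20616, had 502 counts per library on average but shares 0 exonic bases with it. Another, 4931403E22Rik, shares 40 exonic bases with Smarca2 and had 9.67 counts on average. Which strand setting made the counts is not given in the sources used here.

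Of the core genes, Smarcb1 (chromosome 10, minus strand, 75896769 to 75921617), which encodes the subunit that binds the nucleosome acidic patch, was at 69.6, 63.8, 69.6 and 46.3 CPM in wild-type spermatocytes and at 52.0, 39.5 and 42.2 CPM in round spermatids. The highest round spermatid library lay inside the spermatocyte range. Its log2 fold change of -0.48 ± 0.16 had an edgeR adjusted p of 0.0270 but stayed under the fold threshold of 0.5, so it was not called, whereas DESeq2 called it at -0.51. Smarce1 (chromosome 11, 99209047 to 99231017) was at 79.6, 73.0, 88.1 and 67.6 CPM in spermatocytes and at 59.3, 59.5 and 62.1 CPM in round spermatids. It likewise passed on the adjusted p (edgeR, 0.0488) and not on the fold (-0.35 ± 0.13). Of 31-base words in Smarce1 exons, 16.2% also occur in other genes (12.9% in the pseudogene Gm8494), and how many of its reads were affected was not measured.

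Smarcc1 and Smarcc2, which encode the paralogous scaffold subunits BAF155 and BAF170, had positive log2 fold changes in all 3 genotypes. Smarcc2 (chromosome 10, 128459248 to 128490482) was at 233, 215, 247 and 185 CPM in wild-type spermatocytes and at 288, 248 and 249 CPM in round spermatids. Its round spermatid libraries were just above all of the spermatocyte ones, and the difference did not pass the test (0.25 ± 0.17, edgeR adjusted p = 0.308). In heterozygous mice it was at 220, 224 and 130 CPM in spermatocytes and at 305, 229, 279 and 289 CPM in round spermatids. This missed the threshold with edgeR (0.52 ± 0.18, adjusted p = 0.0642) and was called by DESeq2 (0.51, adjusted p = 0.0475), and by edgeR without heterozygous round spermatid replicate 2 (adjusted p = 0.0341, with 11.1% of genes called) or heterozygous spermatocyte replicate 2 (0.0358, with 11.5%). Without heterozygous spermatocyte replicate 3, the library at 130 CPM, it was 0.29 (edgeR adjusted p = 0.297). Smarcc1 (chromosome 9, 110117708 to 110240178) varied only from 30.1 to 50.3 CPM over all 21 libraries, with log2 fold changes of 0.15 to 0.23 between fractions that did not pass. Dhx30, on the opposite strand, shares 123 exonic bases with Smarcc1 and had 6314 counts per library on average, so that the same limit on strand applies to Smarcc1 and to its ratio with Smarcc2. Dhx30 was not called between fractions (log2 fold changes of -0.14 to -0.01, edgeR).

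Smarcd1 (chromosome 15, 99702129 to 99713991), which encodes the BAF60A subunit that bridges the core to transcription factors, was at 28.6, 25.1, 32.7 and 14.9 CPM in wild-type spermatocytes and at 20.9, 16.2 and 11.8 CPM in round spermatids. Only wild-type spermatocyte replicate 5, at 14.9 CPM, lay within the round spermatid range. The difference did not pass the test (-0.63 ± 0.29, edgeR adjusted p = 0.115), and without that replicate edgeR called Smarcd1 (adjusted p = 0.0283), Smarcb1 (0.00390) and Arid2 (0.0331) beside Pbrm1, 4 of 10 members where 31.6% of all 20262 genes were called. Smarcb1 was also called without wild-type round spermatid replicate 1 (adjusted p = 0.0211), together with 19.9% of genes.

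Of the ARID genes, Arid2 (chromosome 15, 96287518 to 96404992), the PBAF subunit, was at 293, 286, 418 and 221 CPM in wild-type spermatocytes and at 205, 232 and 208 CPM in round spermatids. The spread among the spermatocyte libraries was large, and the difference did not pass the test (-0.50 ± 0.22, edgeR adjusted p = 0.0964). Arid1a (chromosome 4, minus strand, 133679008 to 133756769), the BAF subunit, was at 48.9, 41.5, 57.9 and 45.7 CPM in spermatocytes and at 50.3, 55.2 and 54.4 CPM in round spermatids. Its ranges overlapped (0.14 ± 0.18, adjusted p = 0.614). Arid1a lies 7.21 Mb from Ago1 on the chromosome that carries the deletion, and the heterozygous and null libraries held 40.6 to 74.2 CPM of it.

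**Figure D2:**
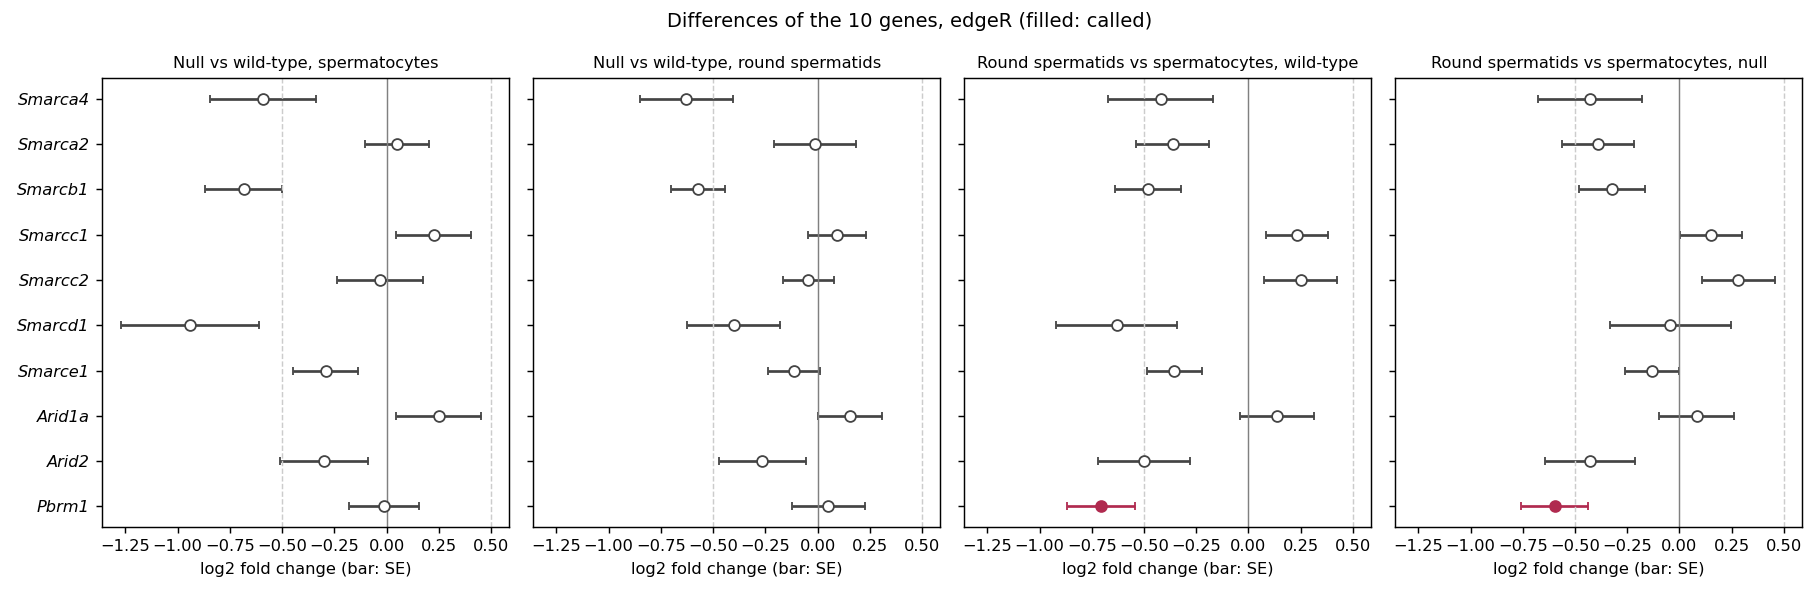
Log2 fold change of each of the 10 genes (points; bars, SE of the edgeR fit; dashed lines, the fold threshold of 0.5 in either direction) for each fraction in null against wild-type mice and for round spermatids against spermatocytes in wild-type and null mice, with called genes filled. Pbrm1 is called in both fraction comparisons (-0.71 and -0.60), and no gene is called between genotypes, where Smarca4, Smarcb1 and Smarcd1 lie farthest from 0.

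Within a library, the balance of the BAF gene Arid1a to the PBAF gene Arid2 was higher in round spermatids. The log2 ratio of their counts was -2.58, -2.78, -2.85 and -2.27 in wild-type spermatocytes and -2.03, -2.07 and -1.93 in wild-type round spermatids. It was -1.86, -2.24 and -2.12 in null spermatocytes and -1.43, -1.33, -1.79 and -1.68 in null round spermatids. The fractions did not overlap in either genotype. In heterozygous mice the ratios were -1.99, -1.83 and -2.47 in spermatocytes and -1.605, -1.88, -2.05 and -1.70 in round spermatids, which overlapped.

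With fraction labels permuted within genotype, the mean difference was 0.47 (exact permutation test, two-sided, p = 0.00042, and 0.00126 adjusted over the 3 ratios examined), made up of 0.61 in wild-type, 0.29 in heterozygous and 0.51 in null mice. A ratio within a library does not depend on how libraries are scaled to each other. The difference was 0.40 with the outlier libraries added back (adjusted p = 0.00202) and between 0.41 and 0.52 in 21 fits that each left out 1 library. With spermatocyte and round spermatid libraries of consecutive library numbers paired, it was 0.42 (exact permutation p = 0.00391, the smallest possible, adjusted 0.0117). The heterozygous part alone was 0.10 without heterozygous spermatocyte replicate 3. Gene length, the same in every library, does not enter the difference. The marker sums given above moved with the same fractions, and their part in the ratio was not tested.

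The other 2 pairs of alternative subunits did not pass. The ratio of Smarcc2 to Smarcc1 differed by 0.18 between fractions (exact permutation p = 0.0747, adjusted 0.112), and that of Smarca2 to Smarca4 by 0.06 (exact permutation p = 0.636). Between genotypes, Smarca2 had 1.41 to 2.59 times the counts of Smarca4 in wild-type spermatocytes and 2.38 to 3.82 times in null spermatocytes. In round spermatids the values were 1.499 to 2.38 times in wild-type and 2.73 to 3.39 times in null libraries, without overlap. The difference of null from wild-type was 0.61 in round spermatids (exact permutation p = 0.0571, the smallest that 4 against 3 libraries allow) and 0.68 in spermatocytes (p = 0.114). With the outlier libraries added back, the round spermatid difference was 0.38 (exact permutation p = 0.200). The ratio of Arid1a to Arid2 given above was higher in null than in wild-type libraries of both fractions without overlap, by 0.55 in spermatocytes and 0.45 in round spermatids (exact permutation p = 0.0571 for each, again the smallest possible). With the outlier libraries these were 0.44 (exact permutation p = 0.143) and 0.50 (p = 0.0286, adjusted 0.171). Without them, the adjusted p was at least 0.114 for each of the 6 tests of ratios between genotypes.

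**Figure D3:**
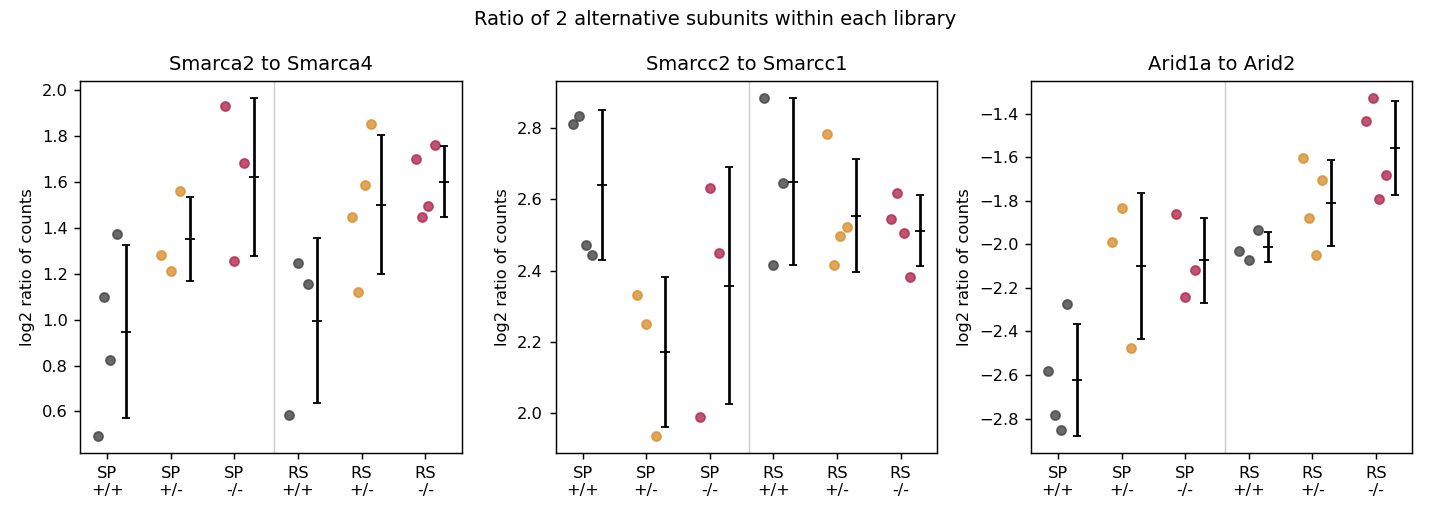
Log2 ratio of counts of 2 alternative subunits within each library, by fraction (SP, RS) and Ago413 genotype, with 1 point per library and the group mean ± SD. The ratio of Arid1a to Arid2 lies between -2.85 and -2.27 in wild-type spermatocytes and between -2.07 and -1.93 in wild-type round spermatids.

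Between genotypes, no member was called by edgeR. The values farthest from 0 were those of the ATPase gene Smarca4 and the core genes Smarcb1 and Smarcd1, whose means were lower in null than in wild-type libraries of both fractions without passing the test. In null spermatocytes, edgeR called 0 of 10 members beside 0.0411% of 19450 genes, with 3 members (Smarcb1, Smarcd1 and Smarca4) and 30.4% of genes at an unadjusted p under 0.05, and DESeq2 called 2 members beside 15.6% of genes. In null round spermatids, edgeR called 0 members beside 0.0518% of 19310 genes, with 2 members (Smarcb1 and Smarca4) and 19.3% of genes at an unadjusted p under 0.05, and DESeq2 called 1 beside 3.64%. In heterozygous spermatocytes edgeR and DESeq2 called 0 members beside 0.0257% and 6.31% of genes, with 1 member at an unadjusted p under 0.05 (24.6% of genes). In heterozygous round spermatids both tools called 0 members beside 0.0207% of genes by edgeR and 0.0363% by DESeq2, with 3 members at an unadjusted p under 0.05 (8.88% of genes).

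Null against heterozygous libraries gave 0 members called by either tool, beside 0.00514% of genes by edgeR and 0.0206% by DESeq2 in spermatocytes and 0.00518% and 0.104% in round spermatids, and 0 members had an unadjusted p under 0.05 (3.74% and 7.67% of genes). Neither interaction of fraction and genotype gave a call for any gene with either tool, and 0 members had an unadjusted p under 0.05 (5.95% of genes for null and 7.72% for heterozygous). Libraries of null and wild-type did not overlap for 1 member in spermatocytes, lower (14.2% of genes lower), and for 2 in round spermatids, lower (9.92% of genes lower). For heterozygous against wild-type, 1 member in spermatocytes was lower (10.8% of genes lower), and in round spermatids 1 was lower (5.20%) and 1 higher (4.43%).

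In spermatocytes, Smarcb1 was at 31.1, 44.4 and 39.4 CPM in null libraries and at 43.4, 40.2 and 44.8 CPM in heterozygous libraries, against the 46.3 to 69.6 CPM of wild-type. All 6 libraries with the deletion were below the lowest of the 4 wild-type libraries, while the omitted wild-type library, at 37.4 CPM on the scale of 24 libraries, was not above them. The log2 fold change of null from wild-type was -0.68 ± 0.19 (edgeR adjusted p = 0.0618; DESeq2 -0.66, adjusted p = 0.0159, called), and that of heterozygous from wild-type was -0.49 ± 0.18 (edgeR adjusted p = 0.146). With the outlier libraries added back, the value of null from wild-type was -0.52 (edgeR adjusted p = 0.242).

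In round spermatids, Smarcb1 was at 32.6, 30.0, 31.2 and 28.5 CPM in null and at 31.5, 38.7, 34.3 and 30.9 CPM in heterozygous libraries, against 39.5 to 52.0 CPM in wild-type. Here too every library with the deletion lay below every wild-type library. The log2 fold change of null from wild-type was -0.57 ± 0.13 (edgeR adjusted p = 0.0781; DESeq2 -0.56, adjusted p = 0.00378, called), and that of heterozygous from wild-type was -0.38 ± 0.13 (edgeR adjusted p = 0.551). The same wild-type libraries served both comparisons. The interaction of fraction and null genotype was 0.16 ± 0.22 (adjusted p = 0.896), so that the differences in the 2 fractions were not shown to be unequal.

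Smarca4 was at 84.2, 195 and 148 CPM in null spermatocytes and at 162, 169 and 135 CPM in heterozygous ones, against 147 to 254 CPM in wild-type. The null libraries were widely spread and overlapped wild-type (log2 fold change -0.59 ± 0.25, edgeR adjusted p = 0.138). In round spermatids it was at 71.6, 99.1, 136 and 118 CPM in null, at 122, 171, 151 and 108 CPM in heterozygous and at 139 to 198 CPM in wild-type libraries. The null libraries were all lower, and the difference did not pass the test (-0.63 ± 0.22, adjusted p = 0.151). Smarcd1 was at 11.1, 14.9 and 12.9 CPM in null spermatocytes and at 17.8, 21 and 7.63 CPM in heterozygous ones, which overlapped the wild-type range only at wild-type replicate 5 (null from wild-type -0.94 ± 0.33, edgeR adjusted p = 0.0894; DESeq2 -0.92, adjusted p = 0.0445, called).

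The remaining members differed less. In null against wild-type spermatocytes, Smarca2, Smarcc1, Smarcc2, Smarce1, Arid1a, Arid2 and Pbrm1 had log2 fold changes of -0.30 to 0.25, and in round spermatids of -0.26 to 0.16. Pbrm1, the member called between the fractions, was at -0.01 ± 0.17 and 0.05 ± 0.18 in the 2 fractions. In heterozygous against wild-type round spermatids, Pbrm1 had the highest log2 fold change of the members (0.39 ± 0.18, edgeR adjusted p = 0.553), with libraries that overlapped. There, the libraries of Arid1a were all higher (66.4, 61.3, 65.3 and 74.2 against 50.3, 55.2 and 54.4 CPM), without passing the test (0.33 ± 0.15, edgeR adjusted p = 0.562). In null against heterozygous round spermatids, all 10 members had a negative log2 fold change (-0.41 to -0.07, median -0.24, all genes -0.02), and none was called.

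The values of null against wild-type libraries moved with markers, and those in spermatocytes with single libraries. The 8 spermatocyte markers had a median log2 fold change of -0.72 in null and -0.70 in heterozygous against wild-type spermatocytes, 8 of 8 negative in each. The 8 round spermatid markers had a median of 0.65 in null and 0.72 in heterozygous spermatocytes, 8 of 8 positive in each. Sertoli markers had a median of -0.71 in null spermatocytes (7 of 7 negative, summed level 72.1 to 131 CPM against 124 to 329 CPM), spermatogonial markers one of 0.68 (5 of 7 positive) and the 4 macrophage markers tested one of 1.30 (3 of 4 positive). EdgeR called none of these. In null spermatocytes, DESeq2 called 4 spermatocyte markers lower, and 2 round spermatid, 2 spermatogonial and 2 macrophage markers higher. In heterozygous spermatocytes, it called 4 spermatocyte markers lower and 4 round spermatid markers higher. Spermatogonial markers there had a median of 0.96 (6 of 7 positive, 1 called higher by edgeR) and Leydig markers one of 1.18 (5 of 5 positive). The part of all these markers in the values of Smarca4, Smarcb1 and Smarcd1 was not tested. In null against wild-type round spermatids, the 8 spermatocyte markers had a median of -0.41 (6 of 8 negative), the 8 round spermatid markers one of 0.34 (7 of 8 positive) and the 6 elongating spermatid markers one of 0.24 (6 of 6 positive). Macrophage markers had a median of 1.41 there (6 of 7 positive, median summed level 20.3 CPM against 13.9 CPM, without overlap). Of these markers, DESeq2 called 1 spermatocyte marker lower and edgeR called none. The part of these markers in the values of Smarcb1 and Smarca4 there was not tested. Without wild-type spermatocyte replicate 5, edgeR called Smarca4 (-0.73, adjusted p = 0.0483), Smarcb1 (-0.80, adjusted p = 0.00871) and Smarcd1 (-1.12, adjusted p = 0.0243) lower in null spermatocytes, together with 23.6% of all 19181 genes. Without null spermatocyte replicate 1, the values were -0.36 for Smarca4 (edgeR adjusted p = 0.393), -0.59 for Smarcb1 (0.231) and -0.88 for Smarcd1 (0.270). Of the parts of these spermatocyte libraries up to and above library number 60, a point chosen here since the labels do not say what the numbers mark, each held 1 library of 1 genotype, too few for values within them.

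The pattern of Smarca4 over the 6 groups was nearest to those of Ap5b1 and Pkp4, with root mean square differences of 0.02 and 0.05 between centred log2 group means among all tested protein-coding genes. Of the other members, Smarcb1 was nearest at 0.08. These are descriptions over 6 group means that share libraries, and no test belongs to them.

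The promoters of Pbrm1, Smarca4 and Smarcb1 are shown because Pbrm1 was the member called between the fractions and because the centred patterns of Smarca4 and Smarcb1 over the groups were close. RefSeq windows (GRCm38.p6, 250 bases before to 50 after the start, written 5′ to 3′ on the strand of the gene) were matched for 8 of 10 members, not for Arid2 and Smarce1. Capitals mark the GC box GGGCGG or its reverse complement CCGCCC, the letters that Sp-family factors bind, and positions are counted from 0 at the start.
Pbrm1, chr14:31018888-31019187, plus strand: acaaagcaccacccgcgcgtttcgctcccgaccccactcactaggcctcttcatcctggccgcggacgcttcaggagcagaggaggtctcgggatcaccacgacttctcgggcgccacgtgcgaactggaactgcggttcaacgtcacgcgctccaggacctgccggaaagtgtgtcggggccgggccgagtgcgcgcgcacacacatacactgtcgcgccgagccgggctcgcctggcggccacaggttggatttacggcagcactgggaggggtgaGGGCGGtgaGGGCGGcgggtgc
Smarca4, chr9:21615919-21616218, plus strand: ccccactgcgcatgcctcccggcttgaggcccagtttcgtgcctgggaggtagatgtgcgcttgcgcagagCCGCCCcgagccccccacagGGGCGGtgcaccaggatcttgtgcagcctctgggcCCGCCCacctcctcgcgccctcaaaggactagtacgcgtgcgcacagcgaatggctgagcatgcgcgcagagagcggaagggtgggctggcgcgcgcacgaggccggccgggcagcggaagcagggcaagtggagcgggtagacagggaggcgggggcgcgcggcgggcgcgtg
Smarcb1, chr10:75921565-75921864, minus strand: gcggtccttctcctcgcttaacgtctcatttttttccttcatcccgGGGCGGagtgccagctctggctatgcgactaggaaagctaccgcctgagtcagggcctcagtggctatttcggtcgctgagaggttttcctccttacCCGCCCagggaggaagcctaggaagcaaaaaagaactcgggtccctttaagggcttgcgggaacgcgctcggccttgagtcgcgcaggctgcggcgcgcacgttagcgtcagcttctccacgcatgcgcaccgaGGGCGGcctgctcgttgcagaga
In Pbrm1 both GC boxes lie after the start, at 28 and 37. In Smarca4 they lie before it, at -179, -159 and -124, and in Smarcb1 at -204, -107 and 27. A GC box on either strand was found in 8 of 8 members with a window and in 35.7% of all 32851 windows. Members were counted by gene and the background by window, which was not matched in expression or base content. No enrichment is read from these shares.

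Other motifs were rarer in the members' windows. The ETS motif CCGGAAG was found in 2 of 8 windows (Smarcc1 and Smarca2) and in 8.86% of all windows, searched on both strands. The CCAAT box (37.4% of all windows) and the cAMP response element TGACGTCA (1.79%) were found in 0 of 8. The window of Smarcc1 starts downstream of the annotated gene start used for the counts, and Arid1a had 2 windows. Such matches describe letters only.

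Of 21 further BAF family genes, 20 passed the filter (not Actl6b), and in wild-type mice edgeR called 4 higher and 2 lower in round spermatids, beside the 24.2% of all genes. Those with the largest log2 fold changes were Bicra, a subunit of non-canonical BAF (1.71 ± 0.45, edgeR adjusted p = 0.00760), Smarcd3, a paralog of Smarcd1 (1.51 ± 0.37, adjusted p = 0.00463), Arid1b, the paralog of Arid1a (1.39 ± 0.31, adjusted p = 0.00242), and Actb, whose actin is also a subunit (1.02 ± 0.17, adjusted p = 0.000548). Bcl7b (-0.98 ± 0.26, adjusted p = 0.00934) and Brd7, a PBAF subunit (-0.62 ± 0.18, adjusted p = 0.0134), fell. The call of Bcl7b was lost without wild-type round spermatid replicate 2 (adjusted p = 0.0630), and that of Brd7 without wild-type round spermatid replicate 4 (0.0706) or wild-type spermatocyte replicate 4 (0.0719). Bcl7b, Brd7 and Phf10 are named after their values were seen.

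Arid1b rose in all 3 genotypes while Arid1a did not pass in any. Arid1b was at 6.02, 4.39, 3.73 and 3.57 CPM in wild-type spermatocytes and at 13.9, 10.1 and 10.7 CPM in wild-type round spermatids. In null mice it was at 5.03, 4.95 and 3.79 CPM in spermatocytes and at 10.9, 15.0, 14.4 and 9.31 CPM in round spermatids. In heterozygous mice it was at 4.38, 7.02 and 1.97 CPM and at 13.6, 8.27, 9.81 and 15.6 CPM. The groups did not overlap in any genotype (log2 fold changes 1.39, 1.43 and 1.39, with edgeR adjusted p = 0.00242 in wild-type, 0.00363 in null and 0.00727 in heterozygous mice), and the call held in 7 of 7 fits that left out 1 library in each genotype. With the outlier libraries added back it was 0.95 in wild-type (adjusted p = 0.0686), 1.16 in heterozygous (0.0751) and 1.43 in null mice (0.0203). Per library, Arid1b stayed at low counts, and the difference between Arid1a and Arid1b was not itself tested.

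Bicra rose in wild-type and heterozygous mice (2.14 ± 0.48, edgeR adjusted p = 0.00603, in the latter) and Smarcd3 in wild-type and null mice (1.32 ± 0.37, adjusted p = 0.0157, in the latter), from levels of 0.223 to 1.20 CPM for Bicra and 0.530 to 0.784 CPM for Smarcd3 in wild-type spermatocytes. These levels stand for 3 to 31 counts of Bicra and 10 to 25 counts of Smarcd3 in a library. Bicra lost its wild-type call without wild-type round spermatid replicate 1 (adjusted p = 0.0709). Smarcd3 lost its null call without null round spermatid replicate 2 (0.0533) or null spermatocyte replicates 2 (0.0656) or 3 (0.126). Actb rose in all 3 genotypes (1.02, 1.03 and 1.23). Actb is also abundant in somatic cells, whose markers did not all move the same way. Of the macrophage markers, 4 of 7 were called higher in round spermatids in wild-type mice, none lower. Leydig markers had a median of -1.51 in heterozygous mice (5 of 5 negative). Sertoli markers had a median of 0.02 in heterozygous and 1.48 in null mice. The part of somatic cells in the Actb value was not tested.

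Grouped by complex, a grouping made after the values were seen and given without a test, the 4 PBAF genes Arid2, Pbrm1, Brd7 and Phf10 had negative log2 fold changes between fractions in every genotype. In wild-type mice they ran from -0.71 to -0.48 (median -0.56) with 2 of 4 called beside 24.2% of all genes, in heterozygous mice from -0.31 to -0.05 with 0 called beside 8.89%, and in null mice from -0.60 to -0.06 with 1 called beside 17.1%. Phf10, at 179, 163, 191 and 169 CPM in wild-type spermatocytes and at 123, 129 and 125 CPM in round spermatids, had an adjusted p of 0.00332 (edgeR) at a fold under the threshold. Of the 5 canonical BAF genes, 1 was called higher in each genotype (Arid1b). Between genotypes edgeR called 0 of the 20 genes in each of the 6 comparisons (5 and 6 genes at an unadjusted p under 0.05 in null against wild-type spermatocytes and round spermatids, beside 30.4% and 19.3% of all genes), while DESeq2 called 4 in null spermatocytes (Dpf3 and Bicral higher, Bcl7b and Brd7 lower) beside 15.6% of all genes, 1 in heterozygous spermatocytes (Dpf3 higher, 0.91, adjusted p = 0.0325) beside 6.31%, and 2 in null round spermatids (Bcl11a and Smarcd2, lower) beside 3.64%.

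**Figure D4:**
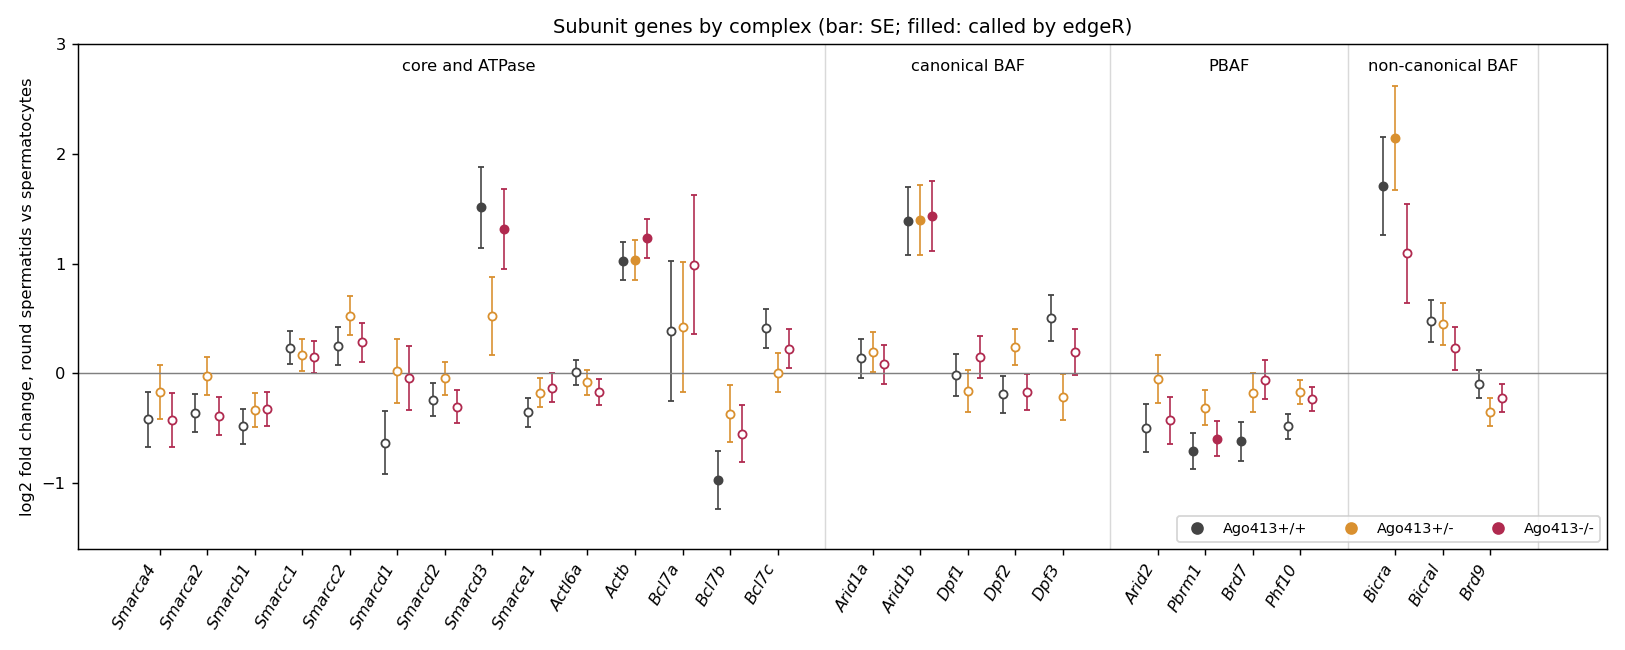
Log2 fold change of round spermatids against spermatocytes (points; bars, SE of the edgeR fit; filled, called) for the subunit genes grouped by complex, in wild-type, heterozygous and null mice. The 4 PBAF genes lie below 0 in every genotype, and Arid1b, Bicra, Smarcd3 and Actb hold the largest positive values.

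Among 9 ATPase genes of other remodeler families, 2 were called in wild-type mice, both lower in round spermatids, beside 24.2% of all genes called (11.4% lower). Smarca5, the ATPase of ISWI complexes, was at 108, 110, 139 and 114 CPM in spermatocytes and at 45.3, 64.1 and 71.3 CPM in round spermatids (log2 fold change -0.97 ± 0.19, edgeR adjusted p = 0.00109). It fell in null mice as well (-0.75 ± 0.18, adjusted p = 0.00699), where 17.1% of all genes were called, and both calls held in 7 of 7 fits that left out 1 library. Ino80 (-0.86 ± 0.30, adjusted p = 0.0380) kept its call in 2 of 7, those without wild-type spermatocyte replicate 2 or 5, and had an adjusted p of 0.0623 to 0.153 in the others. With the outlier libraries added back, edgeR called none of the other subunit or ATPase genes in wild-type mice, as it called no gene at all there, while Smarca5 kept its call in null mice (adjusted p = 0.0426). Neither of the ATPase genes of BAF and PBAF passed the test in the same comparison.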

How the data were processed

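The authors deposited raw counts of 24 libraries, 1 row per gene. Per the study's methods and the submitters' processing notes, reads of directional poly(A) libraries were trimmed with Trim Galore, mapped to mm10 with STAR and counted per gene by STAR itself. That option keeps reads that map to a single place, so reads shared with near-identical copies are lost. The strand column used is not given in the sources used here, and the deposited counts carry no normalization. Symbols, positions and exon lengths came from GENCODE M21 (GRCm38), in which all 55536 identifiers were found. The 3 libraries labelled outliers were left out, which leaves 21.

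Genes with 10 or more counts in 3 or more libraries of a fit were scaled by TMM and tested in edgeR 4.0.16 with its quasi-likelihood F test (limma 3.58.1, R 4.3.3). Calls needed an adjusted p under 0.05 (Benjamini-Hochberg, over all genes tested) and an absolute log2 fold change over 0.5, while interactions used the adjusted p alone. Genotypes were compared in 1 fit per fraction over 3 genotypes, and fractions and interactions in 1 fit of all 21 libraries, which also gave CPM. DESeq2 1.42.0, the study's tool, was an alternative. Ratios of paralogs were tested with exact two-sided permutations (Python 3.11.15, scipy 1.17.1, numpy 2.4.6, pandas 2.3.3). The steps were tested on simulated data. Figures were drawn with matplotlib 3.10.9. Nearness to Smarca4 used log2(CPM + 0.1). Spermatocyte, round spermatid, elongating spermatid, spermatogonia, Sertoli, Leydig, peritubular myoid, macrophage and erythrocyte markers were summed as CPM. Counting error is largest for genes of few counts, and tests rest on the spread between libraries.

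The members, lists and tests were chosen with earlier results of these data known. All 10 members were named. A gene outside the members that the naming rule selected is not reported here. Of the other subunit and ATPase lists, the called genes were named, or the 4 and the 2 with the largest changes where more were called. Alternatives were DESeq2, its size factors, no filter, each library left out, the outlier libraries added back, only the groups compared, a term for library numbers above 60 and replicate blocks. Leaving out each library for the ratio between fractions was chosen after seeing the data.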

Additional observations from a re-analysis of the deposited data

How the results depend on the processing

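Of 560 values of single members under the alternatives, 504 kept their direction and side of the threshold, 21 gained a call, 4 lost one and 31 reversed. All reversals belong to values close to 0. Counts of members called depended on the tool and on single libraries. In null against wild-type spermatocytes the count was 0 with edgeR, 2 with DESeq2, 1 with no filter and 0 to 3 with 1 library left out, and in heterozygous against wild-type spermatocytes 0 to 1, the highest in each without wild-type spermatocyte replicate 5. In null against wild-type round spermatids it was 0 with edgeR and 1 with DESeq2. Between fractions in wild-type mice it was 1 with edgeR, 2 with DESeq2, 2 with the size factors of DESeq2, 0 with the outlier libraries added back and 1 to 4 with 1 library left out (4 without wild-type spermatocyte replicate 5). In heterozygous mice it was 0 with edgeR, 1 with DESeq2 and 0 to 1 with 1 library left out, and in null mice 1 with edgeR, 0 with the outlier libraries added back and 0 to 4 with 1 library left out (4 without null spermatocyte replicate 1). The cause was not tested.

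Replicate numbers in the titles did not pair the samples, since correlations of deviations were over 0.1 for 4 of 17 pairs in the same fraction (-0.242 to 0.168) and for 4 of 9 in the same genotype. Consecutive library numbers, each pair a round spermatid and a spermatocyte library of 1 genotype, gave 8 of 9 (-0.14 to 0.307). The labels do not say whether such libraries share a preparation, so these numbers served as a block in an alternative only. If they do share one, the main fits between fractions treat paired libraries as independent. With the replicate block from titles, 4 members were called between fractions in wild-type mice beside 30.3% of genes, and with the block of consecutive numbers 2 beside 24.2% (main 1, 24.2%). With the latter block, the log2 fold change of Pbrm1 was -0.76 in wild-type (edgeR adjusted p = 0.00278) and -0.57 in null mice (0.0226). The block from titles turned the log2 fold change in null against wild-type spermatocytes to -0.0036 for Smarca2, 0.026 for Smarcc2 and 0.048 for Pbrm1, and that of Smarcd1 between fractions in null mice to 0.0080.

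Further reversals in null against wild-type spermatocytes were Smarca2 with a term for library numbers (-0.041), Smarcc2 with only the groups compared (0.017), and Pbrm1 with DESeq2 (0.011), its size factors (0.012), no filter (0.011), the outlier libraries (0.075) and only the groups compared (0.032). In round spermatids they were Smarca2 with no filter (0.025) and Pbrm1 with the outlier libraries (-0.24). With 1 library left out, null against wild-type spermatocytes ran from -0.039 to 0.178 for Smarca2, from -0.141 to 0.094 for Smarcc2 and from -0.106 to 0.158 for Pbrm1. In round spermatids it ran from -0.167 to 0.127 for Smarca2, from -0.096 to 0.027 for Smarcc2 and from -0.076 to 0.166 for Pbrm1. Between fractions in null mice it ran from -0.168 to 0.067 for Smarcd1 and from -0.041 to 0.203 for Arid1a. The ratio between fractions ran from -0.0020 to 0.128 for Smarca2 to Smarca4 and from 0.120 to 0.228 for Smarcc2 to Smarcc1, for which the adjusted p was 0.0457 without wild-type round spermatid replicate 2 and up to 0.278 otherwise.

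Counts of all genes called in null against wild-type spermatocytes moved from 8 with edgeR to 3026 with DESeq2, 2623 with no filter, 1303 with only the groups compared, 687 with the block from titles and 4526 without wild-type spermatocyte replicate 5. In null against wild-type round spermatids they moved from 10 to 702 with DESeq2 and 238 with no filter, and in heterozygous against wild-type spermatocytes from 5 to 1228 and 1481. With the outlier libraries added back, the fraction comparison called 0 genes in wild-type (main 4934) and heterozygous mice (main 1814) and 2275 in null mice (main 3498). Every member had at least 143 counts in each of the 21 libraries.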
